A study of Mus musculus with 4 samples.

Results

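Condensin and cohesin are ring-shaped protein complexes that fold and hold chromosomes, and the RNA of 10 of their subunits is described here in stem and progenitor cells of mouse bone marrow. The genes were chosen by name: the condensin genes Smc2, Smc4, Ncaph, Ncapg, Ncapd2 and Ncapd3, and the cohesin genes Smc1a, Smc3, Rad21 and Stag2. Of these 10, 9 had a probe set that names 1 gene, out of 22180 genes so measured in the series, and all 9 lay above the floor that left 14061 genes for comparison. Each of the 9 had 1 probe set, so no choice between probe sets was needed. Ncapg was measured only by a probe set that also names Lcorl, and its value is given apart from the others.

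The series holds 4 Affymetrix arrays, 1 for each group. The groups were LSK cells of AMKO mice taken 8 days after a dose of 150 mg/kg 5-fluorouracil (5FU, day 8), of AMKO mice at day 0 (Basal), of Ctrl mice at day 8 after the same dose and of Ctrl mice at day 0. LSK cells lack lineage markers and carry Sca-1 and c-Kit on their surface, and they include hematopoietic stem cells and multipotent progenitors. All mice were labelled male, C57/B6 and 4 months old. Neither the meaning of AMKO nor the number of mice behind an array is given in the labels, so AMKO is used as a genotype label and was not checked against a targeted gene. 5FU is a pyrimidine analog that kills dividing cells, and the series gives the dose as a way of activating stem cells.

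In both complexes a pair of long SMC proteins with ATPase heads is closed by a kleisin protein, to which HEAT-repeat subunits bind. Condensin compacts chromosomes for mitosis. Condensin I reaches chromosomes once the nuclear envelope breaks down, and condensin II, which shares Smc2 and Smc4 with it, is in the nucleus throughout the cell cycle. Cohesin is loaded in interphase, forms chromatin loops together with CTCF and holds sister chromatids together until anaphase. Cohesin genes, STAG2 most often, are recurrently mutated in human myeloid leukemia, and in mice the loss of cohesin subunits alters the self-renewal of blood stem cells.

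Stretches of promoter are shown for 4 subunits, because 4 of the 5 measured condensin genes had larger 5FU differences in AMKO than any cohesin gene. Smc2 and Ncapd2 were taken as condensin genes with motif matches, Ncaph as the measured subunit with the largest 5FU difference, and Smc3 as a cohesin gene without matches. Each line gives the 150 bases before the annotated start, 5′ to 3′ on the gene's strand, from RefSeq on GRCm38.p6. They lie at chr4:52439071-52439220 (plus strand) for Smc2, chr6:125191587-125191736 (minus strand) for Ncapd2, chr2:127133955-127134104 (minus strand) for Ncaph and chr19:53600246-53600395 (plus strand) for Smc3. Capitals mark the letters TTTGAA, the core of the cell cycle genes homology region (CHR), and CCAAT, the CCAAT box, each on either strand. Smc1a, the other cohesin gene whose promoter was available, is not shown and held a CCAAT match 19 bases before its start. The choice followed the matches in part, so the 4 lines do not compare the complexes.
Smc2: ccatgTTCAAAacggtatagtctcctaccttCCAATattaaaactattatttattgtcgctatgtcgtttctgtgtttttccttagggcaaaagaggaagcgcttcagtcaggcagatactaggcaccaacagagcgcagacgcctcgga
Ncapd2: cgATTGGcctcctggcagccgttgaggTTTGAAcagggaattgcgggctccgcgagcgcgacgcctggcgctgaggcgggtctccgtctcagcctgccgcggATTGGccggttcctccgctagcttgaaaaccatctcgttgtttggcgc
Ncaph: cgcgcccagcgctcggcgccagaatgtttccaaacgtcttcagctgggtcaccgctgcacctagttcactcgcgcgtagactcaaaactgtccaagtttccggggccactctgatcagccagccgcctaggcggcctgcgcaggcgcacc
Smc3: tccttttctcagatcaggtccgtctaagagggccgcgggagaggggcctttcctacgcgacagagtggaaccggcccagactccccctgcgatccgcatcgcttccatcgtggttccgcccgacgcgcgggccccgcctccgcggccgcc

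The RefSeq table held windows of 250 bases before to 50 bases after the start for 5 of the 6 condensin genes and 2 of the 4 cohesin genes. TTTGAA was found on either strand in 4 of 6 condensin windows, 1 each of Smc2, Ncapg, Ncapd2 and Ncapd3. It was found in 0 of 2 cohesin windows, against 17.9% of all 32851 windows in the table. With 2 windows and this share, 0 matches says nothing particular to cohesin. For Ncapd3 the match was in the second of its 2 windows. CCAAT was found for 3 condensin genes and for Smc1a, against 37.4% of all windows. An E2F-type site, searched as TTTCCCGC, TTTCGCGC, TTTGCCGC or TTTGGCGC on either strand, was found for Ncapg, Ncapd2 and Smc1a, against 2.26% of all windows. A match of letters is a description of the sequence and not a binding site, and Ncaph, whose RNA differed most, held 0 matches to any of these motifs in its window.

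Before the values of the subunits, the arrays that stand apart need to be named. Of 12 mature neutrophil genes, 6 were at or above the floor in AMKO 5FU, 3 in AMKO Basal, 12 in Ctrl 5FU and 3 in Ctrl Basal. The neutrophil granule gene Camp had log2 values of 4.13 and 4.20 in the AMKO 5FU and Basal arrays, against 12.29 and 5.05 in the Ctrl 5FU and Basal arrays. Summed on the linear scale, the neutrophil genes came to 534, 427, 24308 and 453 in AMKO 5FU, AMKO Basal, Ctrl 5FU and Ctrl Basal. Granulocyte-monocyte progenitor genes summed to 1433, 2119, 8040 and 1879 in the same order, and B-lineage genes to 646, 607, 5492 and 614. Xist, which is expressed in female cells, had 7.65 in Ctrl 5FU and 3.97 to 4.41 in the others, while the Y-linked Kdm5d had 7.80 to 8.09 in all 4. Megakaryocyte genes stood lower at day 8 in AMKO and in Ctrl. Their sums were 3250 in AMKO 5FU and 6724 in AMKO Basal, and 2744 in Ctrl 5FU and 6556 in Ctrl Basal. Of 6, 4 were at least 2-fold lower in AMKO, 4 in Ctrl and 3 in both, against 3.55%, 4.46% and 1.98% of all genes. The part of these in the 5FU differences of the subunits was not tested. Skeletal muscle genes summed to 3562 in Ctrl Basal and to 470 to 715 in the others. Of the 10 LSK genes listed, 8 were measured, among them Kit with 11.16, 11.87, 11.08 and 11.84, and all 8 were above the floor in every array, while Ly6a, the gene of Sca-1, had no probe set that names it alone. The comparison within AMKO uses neither Ctrl array, so each 5FU difference is given for AMKO and for Ctrl apart.

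**Figure D1:**
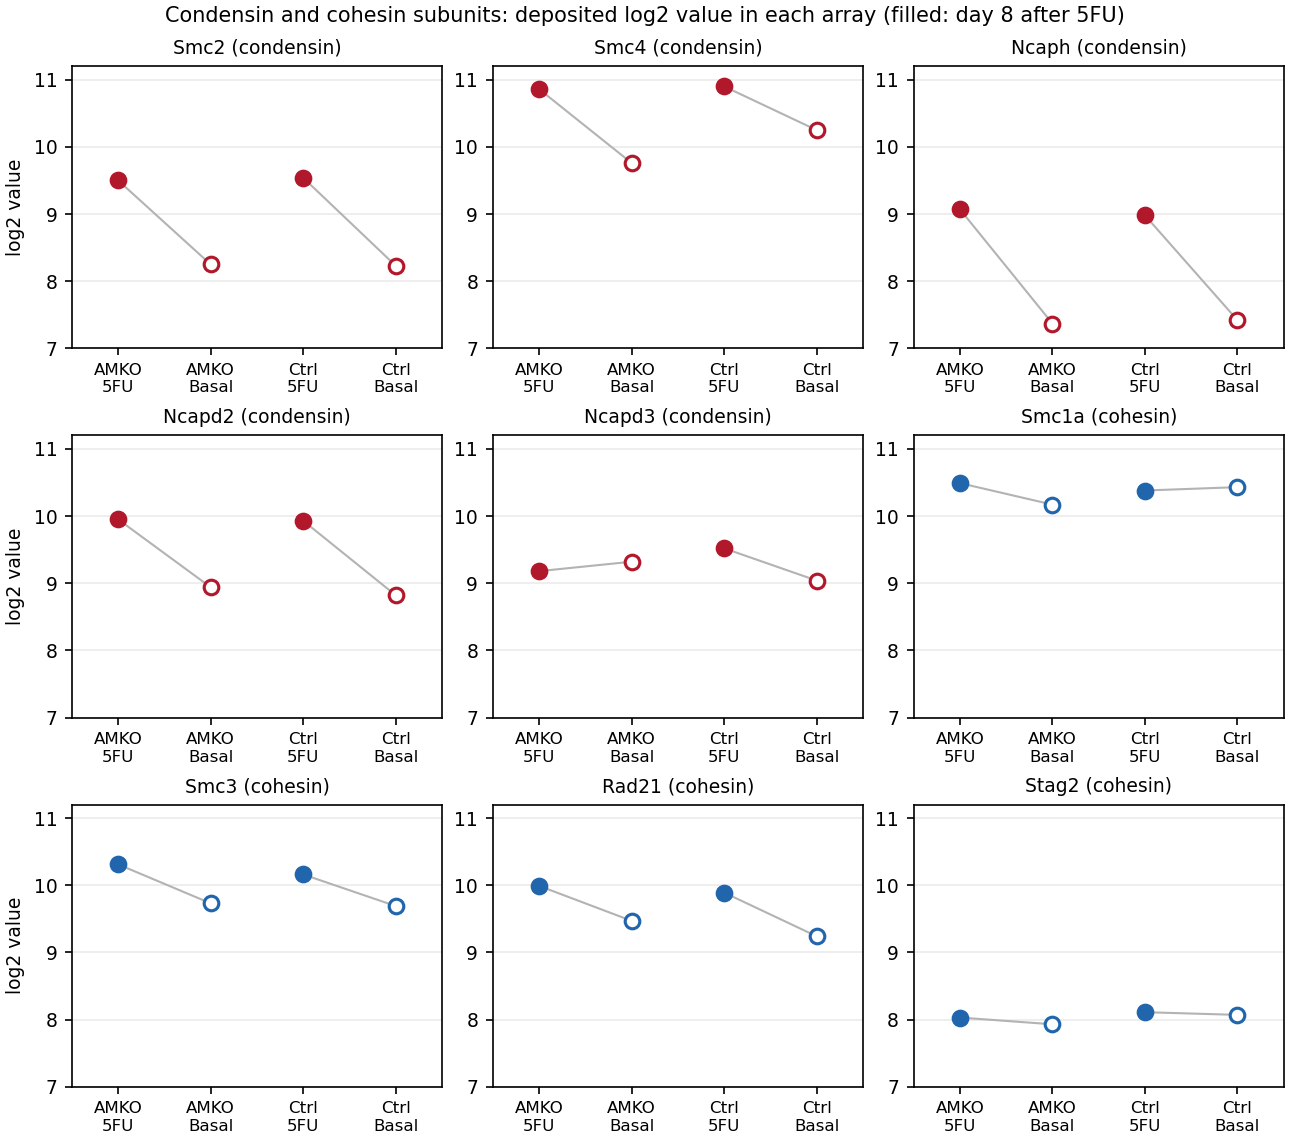
Deposited log2 value (vertical axis) of the 9 measured subunits in each of the 4 arrays, 1 point per array and 1 panel per gene; filled points are day 8 after 5FU, open points are Basal, red is condensin, blue is cohesin and grey lines join the arrays of 1 genotype. Smc2, Smc4, Ncaph and Ncapd2, and also the cohesin genes Smc3 and Rad21, have both filled points above both open points. This holds for 32.0% of all genes. Stag2 stays between 7.93 and 8.11. Levels of different genes come from different probe sets and are not comparable.

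How the RNA of the subunits differed between LSK cells at day 8 after 5FU and Basal LSK cells was read first for condensin. The 4 measured subunits of condensin I (Smc2, Smc4, Ncaph and Ncapd2) were higher after 5FU in both genotypes, and the condensin II subunit Ncapd3 was higher in Ctrl and not in AMKO. Of the 5 condensin genes measured, 4 were at least 2-fold higher in AMKO and 3 in Ctrl, against 4.69% and 5.02% of all 14061 genes. The same 3, Smc2, Ncaph and Ncapd2, were at least 2-fold higher in both genotypes, against 1.96% of all genes. After quantile normalization Ncapd2 had a difference of 0.82 in AMKO, which left Smc2 and Ncaph, so 2 of 5 were at least 2-fold higher in AMKO. The median log2 difference over the 5 genes was 1.10 in AMKO and 1.11 in Ctrl, where all genes had medians of 0.03 and 0.01. Over both complexes, 8 of 9 subunits were above 0 in AMKO, 8 in Ctrl and 7 in both, against 52.3%, 50.1% and 37.0% of all genes. RNA was pooled over the sorted cells of an array, so a different share of cycling cells and a different amount of RNA per cell cannot be told apart.

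Smc2, an SMC ATPase of both condensins, had log2 values of 9.50 in AMKO 5FU and 8.25 in AMKO Basal, and 9.54 in Ctrl 5FU and 8.23 in Ctrl Basal. Both 5FU arrays lay well above both Basal arrays, and the genotypes lay within 0.04 of each other at each time. This is 2.38-fold higher in AMKO and 2.48-fold higher in Ctrl. Its partner Smc4 had 10.86 in AMKO 5FU and 9.76 in AMKO Basal, and 10.90 in Ctrl 5FU and 10.25 in Ctrl Basal. The 5FU arrays of Smc4 were close together, and the Basal arrays lay apart, with Ctrl the higher by 0.49, so that Smc4 was 2.14-fold higher in AMKO and 1.57-fold higher in Ctrl.

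Ncaph, the kleisin of condensin I, had 9.07 in AMKO 5FU and 7.37 in AMKO Basal, and 8.98 in Ctrl 5FU and 7.42 in Ctrl Basal. It had the largest 5FU difference of the 9 subunits in each genotype, at 3.25-fold in AMKO and 2.95-fold in Ctrl. Only 96 of 14061 genes had a larger difference in AMKO, and 300 in Ctrl. Ncapd2, a HEAT-repeat subunit of condensin I, had 9.95 in AMKO 5FU and 8.94 in AMKO Basal, and 9.93 in Ctrl 5FU and 8.82 in Ctrl Basal. It was 2.01-fold higher in AMKO, just past the 2-fold size, and 2.16-fold higher in Ctrl.

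The probe set that names both Ncapg, the other HEAT-repeat subunit of condensin I, and Lcorl had 9.32 in AMKO 5FU and 7.64 in AMKO Basal, and 9.56 in Ctrl 5FU and 7.98 in Ctrl Basal. Its signal was 3.20-fold higher in AMKO and 2.99-fold higher in Ctrl, but it cannot be given to either gene. Ncapd3, a HEAT-repeat subunit of condensin II, had 9.18 in AMKO 5FU and 9.32 in AMKO Basal, and 9.52 in Ctrl 5FU and 9.04 in Ctrl Basal. Its 5FU and Basal arrays overlapped, with log2 differences of -0.14 in AMKO and 0.48 in Ctrl, and the order of the genotypes turned round between the times.

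The other subunits that only condensin II has were taken from the list of related genes. Ncapg2, its HEAT-repeat partner of Ncapd3, had 8.38 in AMKO 5FU and 6.56 in AMKO Basal, and 8.52 in Ctrl 5FU and 6.96 in Ctrl Basal. Its differences of 1.82 in AMKO and 1.56 in Ctrl stand beside 1.70 and 1.56 for Ncaph. Ncaph2, the kleisin of condensin II, differed by 0.19 in AMKO and 0.11 in Ctrl. Thus 1 of 3 genes specific to condensin II was at least 2-fold higher in both genotypes, against 3 of the 4 measured genes of condensin I, which include the shared Smc2 and Smc4, and 1.96% of all genes, and this difference between small lists was not tested.

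Cohesin core subunits differed less from Basal than condensin I subunits. None of the 4 was at least 2-fold higher or lower in AMKO or in Ctrl, where 4.69% and 3.55% of all genes were so in AMKO and 5.02% and 4.46% in Ctrl, and 1.98% were 2-fold lower in both. With 4 genes and such shares, this count does not set cohesin apart from other genes. The median log2 difference was 0.42 in AMKO and 0.255 in Ctrl, and 0.244 and 0.156 after quantile normalization. Condensin therefore lay above cohesin by 0.68 in AMKO and by 0.855 in Ctrl, as medians of 5 and 4 genes. With 1 array per group and genes that are no replicates, this difference between the complexes has no test.

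Smc3, an SMC ATPase of cohesin, had 10.31 in AMKO 5FU and 9.73 in AMKO Basal, and 10.16 in Ctrl 5FU and 9.69 in Ctrl Basal. Rad21, the mitotic kleisin that separase cleaves at anaphase, had 9.99 in AMKO 5FU and 9.47 in AMKO Basal, and 9.89 in Ctrl 5FU and 9.24 in Ctrl Basal. Both genes had both 5FU arrays above both Basal arrays, by 0.58 in AMKO and 0.47 in Ctrl for Smc3 and by 0.52 and 0.65 for Rad21. In Ctrl, Rad21 and the condensin gene Smc4 had the same difference of 0.65, so the complexes met there, while in AMKO Smc2, Smc4, Ncaph and Ncapd2 lay above every cohesin gene and Ncapd3 below every one.

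Smc1a, the X-linked partner of Smc3, had 10.49 in AMKO 5FU and 10.17 in AMKO Basal, and 10.38 in Ctrl 5FU and 10.43 in Ctrl Basal. The arrays overlapped, with differences of 0.32 in AMKO and -0.05 in Ctrl. Stag2, a HEAT-repeat subunit that stabilises cohesin on DNA, had 8.03 in AMKO 5FU and 7.93 in AMKO Basal, and 8.11 in Ctrl 5FU and 8.07 in Ctrl Basal. Its 5FU arrays also overlapped the Basal arrays, and its differences of 0.10 and 0.04 were the closest to 0 over both genotypes among the 9 subunits.

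**Figure D2:**
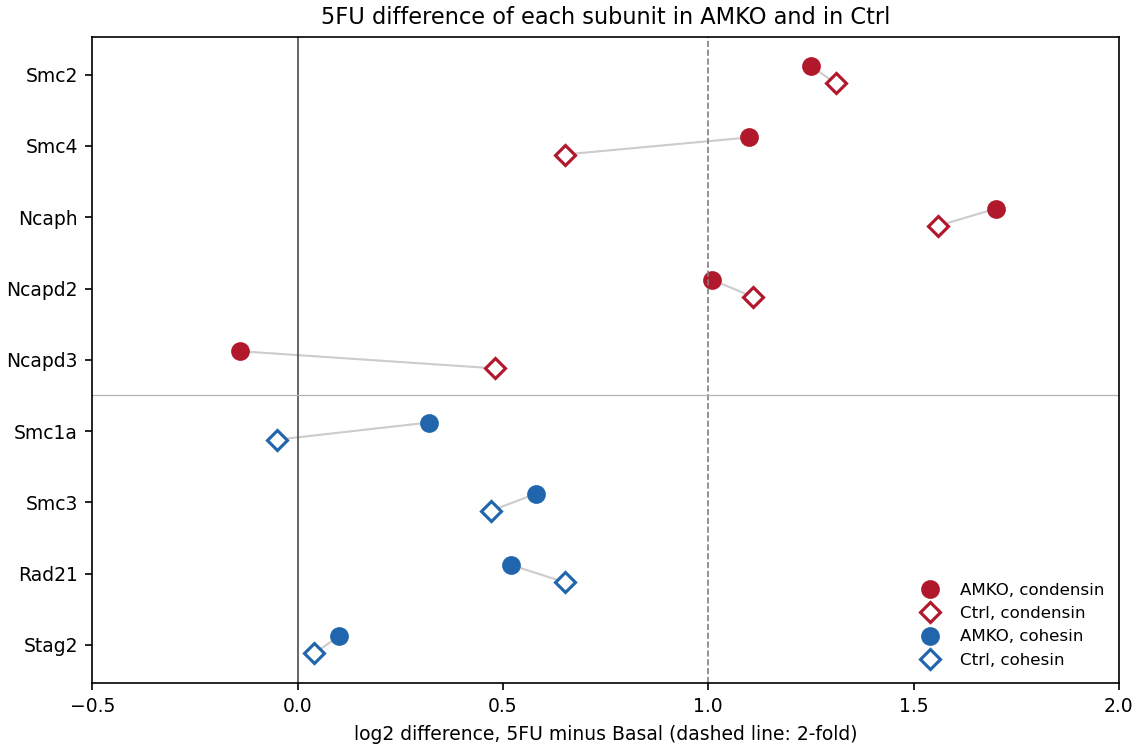
Log2 difference between the 5FU and the Basal array (horizontal axis) of the 9 measured subunits, 1 row per gene; filled circles are AMKO, open diamonds are Ctrl, red is condensin, blue is cohesin and the dashed line is 2-fold. Smc2, Ncaph and Ncapd2 lie past 2-fold in both genotypes, and the cohesin genes lie between -0.05 and 0.65.

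The averaged 5FU effect was set against the gap between the genotypes' 5FU differences in a limma fit over the 4 arrays, with genotype and treatment as additive terms, which has 1 residual degree of freedom. The fit called 0 of 14061 genes for 5FU (0.0%) at an adjusted p under 0.05, with 3907 (27.8%) at an unadjusted p under 0.05, so none of the 9 subunits passed. The effects and standard errors were 1.63 ± 0.13 for Ncaph and 1.28 ± 0.12 for Smc2 (limma adjusted p = 0.0697 for both). They were 1.06 ± 0.12 for Ncapd2 (limma adjusted p = 0.0708) and 0.88 ± 0.16 for Smc4 (limma adjusted p = 0.0844). Ncapd3 had 0.17 ± 0.20 (limma adjusted p = 0.626). Cohesin genes had 0.58 ± 0.12 for Rad21 (limma adjusted p = 0.093), 0.52 ± 0.11 for Smc3 (0.0978), 0.14 ± 0.14 for Smc1a (0.583) and 0.07 ± 0.13 for Stag2 (0.766).

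Both 5FU arrays lay above both Basal arrays for 4 of 5 condensin genes and 2 of 4 cohesin genes, against 32.0% of all genes. With limma's robust estimation of the variance prior, which called 9.35% of all genes, 4 of 5 condensin genes and 0 of 4 cohesin genes passed. The 4 were Smc2, Smc4, Ncaph and Ncapd2, with adjusted p between 0.0177 and 0.0368, and the lowest adjusted p of a cohesin gene was 0.0539. The other changes were each made to the fit without robust estimation, where 0 subunits passed. After quantile normalization (6.59% of all genes called) 3 condensin genes passed, and after median centring (1.12%) 1. With a floor at the 75th percentile of values (15.7% of the 8228 genes above it called), the same 4 condensin genes and Rad21 passed. Rad21 had a limma adjusted p of 0.0473. With no floor, with no intensity trend and with the mean of probe sets, 0 genes and 0 subunits were called, and Smc2 had adjusted p of 0.106, 0.0913 and 0.0685. A p that misses the threshold does not show that cohesin genes kept their level.

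The scaling of the arrays moved the values of both complexes. Among the 6323 genes with a mean log2 value from 7.5 to 11, the range that holds all 9 subunits, the median 5FU difference was 0.16 in AMKO and 0.08 in Ctrl, so genes of this brightness were slightly higher after 5FU as a whole. Quantile normalization brought these medians to 0.02 and 0.00. It left Smc3 with 0.42 in AMKO and 0.34 in Ctrl, Rad21 with 0.34 and 0.54, Smc1a with 0.15 and -0.14 and Stag2 with -0.01 and -0.02. Smc2, Smc4, Ncaph and Ncapd2 then had 0.82 to 1.58 in AMKO and 0.52 to 1.51 in Ctrl, and Ncapd3 had -0.32 and 0.38. Centring each array on its median instead moved the median of all genes in AMKO to 0.14, and the condensin median to 1.21 and the cohesin median to 0.53.

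**Figure D3:**
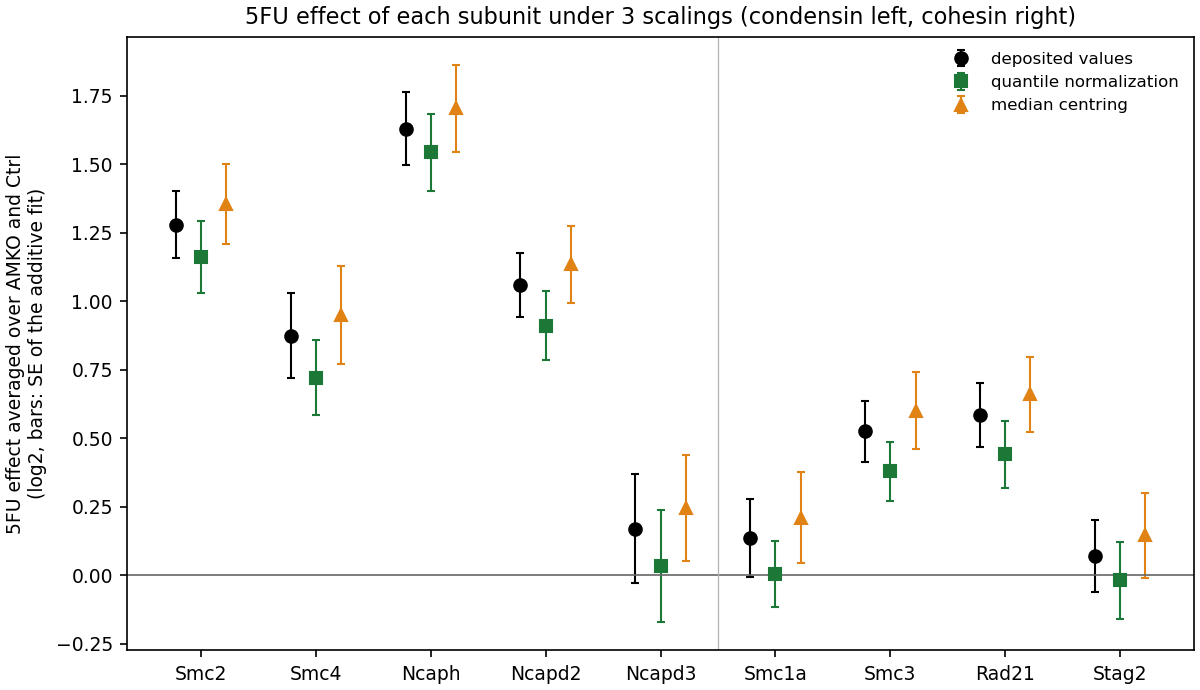
5FU effect averaged over AMKO and Ctrl (vertical axis, log2) of each subunit under 3 scalings of the arrays, with the standard error of the additive limma fit as bars; black circles are deposited values, green squares quantile normalization and orange triangles median centring. Smc2, Smc4, Ncaph and Ncapd2 lie from 0.72 to 1.70 under all 3, and Smc1a and Stag2 come to 0.00 and -0.02 after quantile normalization.

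Whether AMKO and Ctrl cells differed in these genes was read at each time. None of the 9 subunits was 2-fold different between the genotypes at day 8 (0.74% of all genes were that much higher and 2.63% lower in AMKO) or at Basal (0.228% and 0.697%). At day 8 the differences, AMKO minus Ctrl, ran from -0.34 for Ncapd3 to 0.15 for Smc3, and at Basal from -0.49 for Smc4 to 0.28 for Ncapd3. Medians at day 8 were -0.04 for condensin and 0.105 for cohesin, where all genes had 0.06. At Basal they were 0.02 and -0.05. At each time 5 of 9 subunits were above 0, against 59.0% of all genes at day 8 and 49.4% at Basal. For the genotype term, limma called 0 genes (0.0%), with 446 at an unadjusted p under 0.05, and the lowest adjusted p among the subunits was 0.906. The Ctrl arrays are those with neutrophil, B-lineage and muscle genes above the other arrays, and the part of these in the genotype values was not tested.

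The difference between the genotypes' 5FU differences, AMKO minus Ctrl, was between -0.13 and 0.14 for Smc2, Ncaph, Ncapd2, Smc3, Rad21 and Stag2. It was 0.45 for Smc4, 0.37 for Smc1a and -0.62 for Ncapd3, with no test. For Smc4 the gap between genotypes was at Basal (-0.49) and not at day 8 (-0.04).

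Further genes of chromosome structure were read from lists of related genes by role. No gene of these lists passed the additive limma fit, which called 0 of all 14061 genes (0.0%), so this says nothing particular to the lists. Averaged over the genotypes, Sgo1, Espl1, Esco2 and Cdca5, which act on sister chromatids in S phase and mitosis, had the largest positive 5FU differences among 14 cohesin regulators, while Nipbl and Mau2 of the loader had differences of 0.07 or less. Of 14 genes that load, release, stabilise or remove cohesin, 4 were at least 2-fold higher in AMKO, 4 in Ctrl and 3 in both, against 4.69%, 5.02% and 1.96% of all genes. None was 2-fold lower. The list's median was 0.46 in AMKO and 0.18 in Ctrl.

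The 3 were Sgo1, shugoshin, which protects centromeric cohesin (1.86 in AMKO and 1.33 in Ctrl), Espl1, separase (1.04 and 1.61), and Esco2, which acetylates Smc3 during S phase (1.07 and 1.51). Cdca5, sororin, which counters cohesin release, had 1.17 and 0.95, and Sgo2a, a second shugoshin, 0.64 and 1.44. With robust estimation, which called 9.35% of all genes, the 4 of the 14 past the threshold were Sgo1, Espl1, Esco2 and Cdca5. Nipbl, which loads cohesin, had 0.07 and -0.03, its partner Mau2 -0.27 and -0.02, and Wapl, which releases cohesin, 0.46 and 0.09. Pds5a and Pds5b, which bind the ring and take part in both its release and its protection, had 0.31 and 0.01, and 0.71 and 0.30. Ctcf, the insulator protein that halts loop extrusion, had 0.46 and 0.27, and Pttg1, securin, 0.36 and 0.10. Hdac8, which deacetylates Smc3, had -0.22 and -0.23. Esco1, the acetyltransferase active outside S phase, was lower by 0.91 in AMKO and by 0.10 in Ctrl, and its AMKO Basal array (9.65) lay above the other 3 (8.56 to 8.74).

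Among 5 alternative cohesin subunits, 3 passed the floor. Rec8, the meiotic kleisin that takes the place of Rad21 in germ cells, had 7.82 in AMKO 5FU and 8.65 in AMKO Basal, and 7.14 in Ctrl 5FU and 8.49 in Ctrl Basal. Both 5FU arrays lay below both Basal arrays, as for 27.7% of all genes, opposite to Rad21. Its effect was -1.09 ± 0.19 (limma adjusted p = 0.0832, and 0.0368 with robust estimation). Stag1, the paralog of Stag2, had 0.33 in AMKO and 0.33 in Ctrl, and Stag3, a meiotic paralog, 0.66 and 0.22. The meiotic genes Smc1b and Rad21l lay under the floor in every array.

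The SMC5/6 complex, a further SMC complex that acts in repair and replication, had a median of 0.74 in AMKO and 0.25 in Ctrl over 7 genes. In AMKO and in Ctrl 0 of 7 were at least 2-fold higher, against 4.69% and 5.02% of all genes. With 7 genes and such shares, 0 says nothing particular to this complex. Its ATPases had 0.53 and 0.52 for Smc5 and 0.92 and 0.74 for Smc6. Eid3, a kleisin-type subunit, had 6.99 in AMKO 5FU and 6.04 in AMKO Basal, against 5.68 in Ctrl 5FU and 5.99 in Ctrl Basal, with AMKO 5FU apart from the other 3. Nsmce4a, another such subunit, had 0.99 and 0.10. With robust estimation, which called 9.35% of all genes, 2 of the 7, Smc6 and Nsmce1, passed, both higher after 5FU, and after quantile normalization (6.59%) 0 of the 7 passed.

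Of 10 genes that work beside condensin on chromosomes, 5 were at least 2-fold higher in AMKO, 6 in Ctrl and 5 in both, against 4.69%, 5.02% and 1.96% of all genes. Their medians were 1.06 in AMKO and 1.14 in Ctrl. The kinases that act on condensin were among them, with 1.63 and 1.57 for Cdk1, 1.51 and 1.82 for Plk1 and 1.34 and 1.5 for Aurkb. Kif4, a chromokinesin, had 1.37 and 1.55, and Top2a, the topoisomerase of mitotic chromosomes, 1.36 and 1.23. Mki67, which coats mitotic chromosomes, had 0.79 and 1.06. Top2b, the topoisomerase also present in cells that do not divide, had 0.28 and 0.40, Mcph1, an inhibitor of condensin II, 0.55 and 0.45, Smchd1, an SMC-related protein of the inactive X chromosome, 0.58 and 0.50, and Akap8 -0.26 and -0.40. Over 19 measured mitotic genes, a list that shares 5 genes with these 10, the medians were 1.43 and 1.55, and over 19 DNA replication genes they were 0.95 and 1.0. The condensin medians of 1.10 and 1.11 lay between those of the replication and the mitotic genes, and the cohesin medians lay below both.

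**Figure D4:**
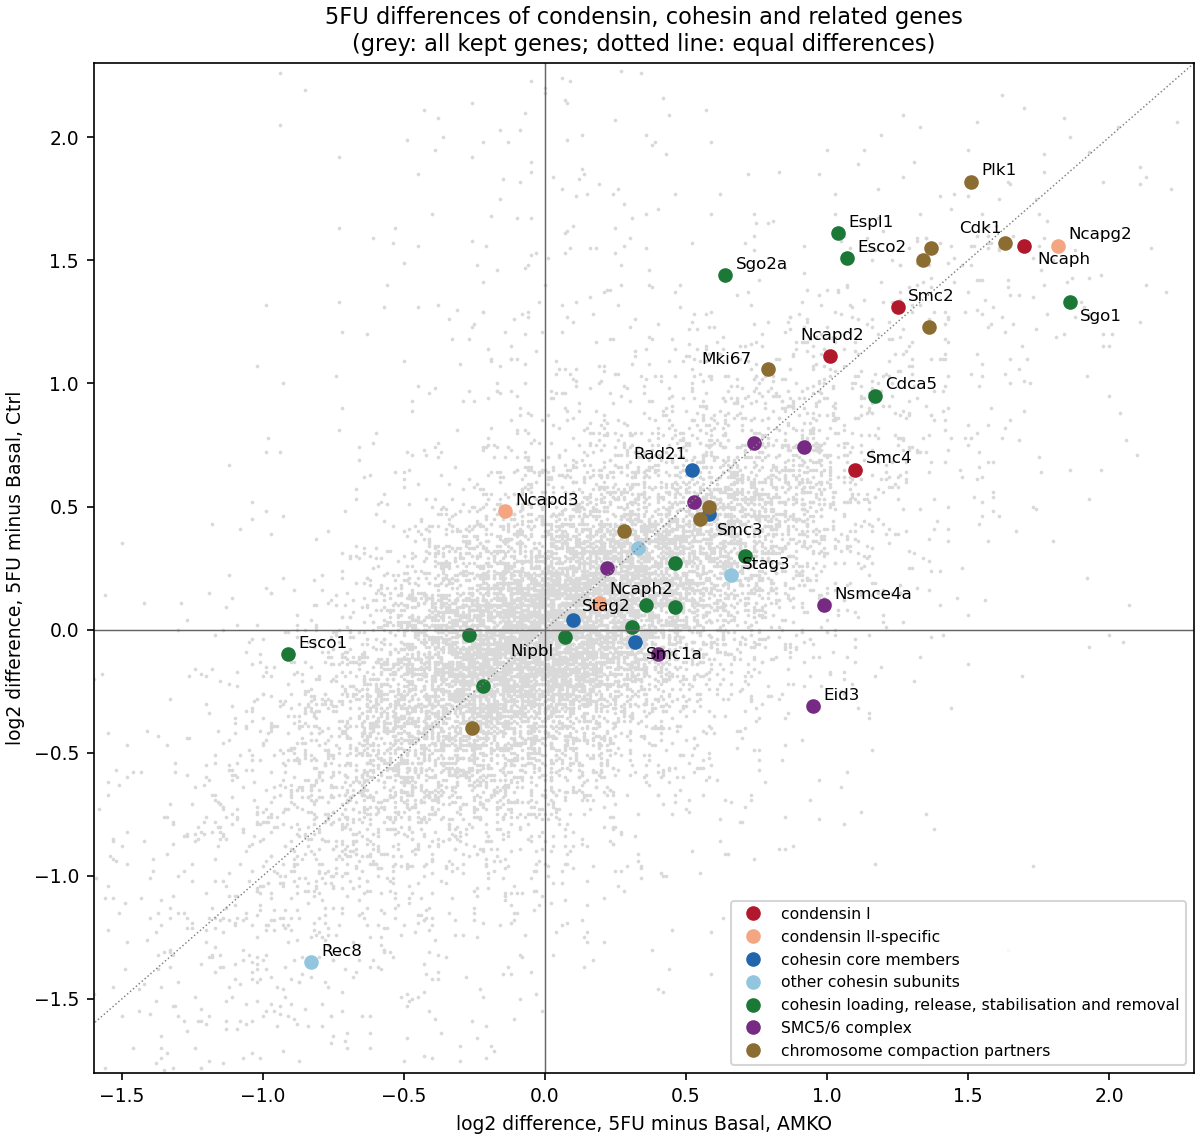
Log2 difference between 5FU and Basal in AMKO (horizontal axis) and in Ctrl (vertical axis) for the genes of condensin, cohesin and the lists of related genes that passed the floor, coloured by list, over all kept genes in grey; grey points beyond the axes are not drawn. Smc2, Ncaph, Ncapd2 and Ncapg2 lie at the upper right with Sgo1, Espl1, Esco2 and the mitotic kinases, and Rec8 lies at the lower left. The cohesin core lies between -0.05 and 0.65 on both axes. Of it, Smc3 lies above 84.2% of all kept genes in AMKO and 83.6% in Ctrl, and Rad21 above 81.7% and 89.7%.

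The patterns nearest to those of the complexes were found by the distance between log2 profiles over the 4 arrays, each centred on its own mean. The mean condensin profile, Ncapd3 included, was 0.47 in AMKO 5FU, -0.51 in AMKO Basal, 0.53 in Ctrl 5FU and -0.49 in Ctrl Basal. The 5 nearest genes were Nipsnap3b (distance 0.0128), Mcm6 (0.045), Ezh2 (0.0552), Tbc1d1 (0.0581) and Gtse1 (0.0647). The mean cohesin profile was 0.20, -0.18, 0.13 and -0.15, and its nearest genes were Prkar1a (0.0143), Asnsd1 (0.0156), Abce1 (0.0156), Cat (0.0163) and Snrpe (0.0204). The search covered 12773 genes and left out predicted genes and small RNAs. Of these genes, 306 lay within a distance of 0.3 of the condensin profile and 2808 within 0.3 of the cohesin profile. Closeness to the flatter cohesin profile was therefore common and does not single out the genes named for it. With 4 arrays a close profile is a description of likeness alone.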

How the data were processed

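RNA of sorted LSK cells was hybridised to 4 Affymetrix arrays, per the labels' protocols. The values deposited by the authors, 1 for each probe set on each array, were read as log2 from their range of 1.99 to 13.43. How they were normalized is not stated in these sources. Array medians were 5.43 to 5.55. Values were used as deposited. Of 34472 probe sets, 23521 named 1 gene, 1814 several and 9137 none in the platform annotation; symbols were updated through Entrez identifiers for 23328 with a RefSeq table of GRCm38.p6. For genes with several probe sets the one with the highest mean was used. Genes whose highest value reached the median of all values (5.475) were kept. Depth does not apply to arrays, whose number limits the precision.

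Differences of 1 array from 1 array have no test. The additive fit used limma 3.58.1 under R 4.3.3, with an intensity trend in the variance prior, two-sided p-values and Benjamini-Hochberg adjustment over all kept genes at 0.05. It was tested on simulated data whose added effects were the same in both genotypes. Those data do not show how it handles arrays that stand apart. The fit takes the gap between the genotypes' 5FU differences as error. P-values therefore do not measure a spread between mice. The members, lists and tests were chosen with earlier results of these data known. Named genes were the 10 subunits, genes of the lists of related genes, and the 5 genes nearest to each complex. Alternatives were quantile normalization, median centring, the mean of probe sets, other floors, 1.5-fold, no trend, robust estimation and each array left out. Protein sequences were not used here.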

Additional observations from a re-analysis of the deposited data

Results flagged for a closer look

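Several genes had 5FU differences of opposite sign in the genotypes; with 1 array per group none of these was tested. The AMKO minus Ctrl gap between the 5FU differences was -0.62 for Ncapd3 (-0.14 in AMKO and 0.48 in Ctrl), 0.37 for Smc1a (0.32 and -0.05), 0.10 for Nipbl (0.07 and -0.03), 0.50 for Nsmce3 (0.40 and -0.10) and 1.26 for Eid3 (0.95 and -0.31). For 4 subunits the AMKO minus Ctrl difference changed sign between day 8 and Basal, which was not tested either. How many of all genes did so was not counted. The size of this change equals the gap between the 5FU differences, but the sign changes need not go together. Smc2 and Ncaph were higher after 5FU in both genotypes. The change was -0.06 for Smc2 (-0.04 at day 8 and 0.02 at Basal), 0.14 for Ncaph (0.09 and -0.05), -0.62 for Ncapd3 (-0.34 and 0.28) and 0.37 for Smc1a (0.11 and -0.26). The values for Smc2, Ncaph and Nipbl were close to 0. The probe set that names both Ncapg and Lcorl, which the main comparisons left out, was higher after 5FU by 1.68 in AMKO and 1.58 in Ctrl.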

How the results depend on the processing

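No paired analysis was possible because the labels give no replicate numbers and each group has 1 array. After quantile normalization the condensin medians were 0.925 in AMKO and 1.0 in Ctrl, 2 condensin genes in place of 4 were at least 2-fold higher in AMKO, and the cohesin median in AMKO was 0.244. Stag2 then turned to -0.02 in the additive fit. Median centring gave AMKO medians of 1.21 for condensin and 0.53 for cohesin. At 1.5-fold, 1 cohesin gene (Rad21) counted as higher in Ctrl. The additive fit called 926 genes for 5FU after quantile normalization, 157 after median centring, 1293 with a floor at the 75th percentile and 1315 with robust estimation, and 3, 1, 5 and 4 of the 9 subunits. Leaving out each array in turn gave 0 to 461 genes and 0 to 2 subunits; the 461 and the 2, Smc2 and Ncaph, came without the AMKO 5FU array, and each lone array was assumed to vary like the others. No other alternative turned the direction of a subunit, but the effect came to 0.00 for Smc1a after quantile normalization, for Smc1a and Stag2 without the AMKO Basal array and for Ncapd3 without the Ctrl 5FU array. For AMKO, 0 genes were called under every alternative that kept the genotype term. With the probe set of Ncapg and Lcorl counted as Ncapg, an alternative chosen after seeing the data, the condensin medians were 1.18 in AMKO and 1.21 in Ctrl.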
